A study of Mus musculus with 12 samples.

Results

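The genes described here were 4 receptors of the ErbB family (Egfr, Erbb2, Erbb3, Erbb4) and 6 of their ligands (Nrg1, Nrg2, Nrg4, Hbegf, Tgfa, Areg). They were taken from the gene table by symbol, 10 of 55679 listed genes. The rule uses no measured value, but the list was drawn up with earlier results of these data known. RNA-Seq was performed on whole lung and whole heart of 6 male 129S6/SvEvTac mice, 3 wild-type (WT) and 3 knockout (KO), which gave 12 libraries in 4 groups of 3. KO mice carried 2 copies of the Adam19-tdTomato allele, in which exons 6 and 7 of Adam19 are replaced by a reporter cassette in every cell of the body. WT mice carried no such allele, and neither genotype received a treatment. Lung and heart of a mouse carry the same identifier in the labels, so the tissues are paired by mouse. The number after WT or KO below names the mouse. WT and KO mice shared no identifier prefix, so a difference between the prefixes (one for WT 1 and WT 2, others for WT 3, for KO 1 and for KO 2 and KO 3) cannot be told apart from genotype.

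ErbB receptors are tyrosine kinases that pair up at the cell surface when a ligand with an EGF-like domain binds. Most ErbB ligands are made as membrane-anchored precursors, and metalloproteases of the ADAM family, to which ADAM19 belongs, cut them free in a step called shedding. EGFR binds TGF-alpha, amphiregulin and HB-EGF, and ERBB3 and ERBB4 bind neuregulins. ERBB2 has no known ligand of its own and serves as a partner for the others, and ERBB3 has only weak kinase activity. In lung, EGFR ligands act in epithelial repair, and in heart, neuregulin acts on muscle cells through ERBB4 and ERBB2. RNA levels say nothing of how much ligand was shed.

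The transcript forms of Erbb4 and Nrg1 differ in short exons whose sequence decides what a protease or a receptor meets. They are printed here because the shares of these forms are compared between tissues below. All were read from GENCODE vM39 transcripts (build GRCm39), 5′ to 3′ on the coding strand. The alternative exon is in capitals and 15 bases of coding sequence on either side are in lower case. In Erbb4, the JM-a exon (chr1:68329402-68329476, minus strand, 75 bases, 25 codons) encodes the stretch outside the membrane that ADAM17 can cut. The JM-b exon (chr1:68329598-68329642, minus strand, 45 bases, 15 codons) takes its place in the form that ADAM17 does not cut. The CYT-1 exon (chr1:68083067-68083114, minus strand, 48 bases, 16 codons) encodes a docking site for PI3-kinase inside the cell and is missing from the CYT-2 form. JM-a and JM-b join the same exons on both sides.
Erbb4 JM-a exon: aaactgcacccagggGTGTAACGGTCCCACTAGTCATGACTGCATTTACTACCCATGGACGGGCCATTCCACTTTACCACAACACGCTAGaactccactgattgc
Erbb4 JM-b exon: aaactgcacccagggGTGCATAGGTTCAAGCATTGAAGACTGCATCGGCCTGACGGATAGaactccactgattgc
Erbb4 CYT-1 exon: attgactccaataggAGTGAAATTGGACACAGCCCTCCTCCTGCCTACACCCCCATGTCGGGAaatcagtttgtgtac

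In Nrg1, the end of the EGF-like domain, which binds the receptor, is encoded by either an alpha exon (chr8:32328289-32328356, minus strand, 68 bases) or a beta exon (chr8:32327698-32327756, minus strand, 59 bases). Both follow the same exon and share their first 5 bases. The beta form binds its receptors more tightly than the alpha form.
Nrg1 alpha exon: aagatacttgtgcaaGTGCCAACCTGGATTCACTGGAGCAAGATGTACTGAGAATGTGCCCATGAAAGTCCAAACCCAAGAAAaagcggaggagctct
Nrg1 beta exon: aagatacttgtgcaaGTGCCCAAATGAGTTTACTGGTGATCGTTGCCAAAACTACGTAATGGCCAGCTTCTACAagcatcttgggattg

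The libraries held 17674788 to 28043361 estimated counts in lung and 18392292 to 35862932 in heart, where WT 2 (20381284) and WT 3 (18392292) were shallower than the other 4 hearts. Gene values below are the authors' log2 normalised values, in which 0 means that no count was assigned. As a check of the labels, Adam19 read 9.14, 9.41 and 9.12 in WT lungs and 4.44, 3.21 and 3.50 in KO lungs, a log2 fold change of -5.51 (SE 0.33, adjusted p = 0.000186, limma). In hearts it read 9.17, 9.25 and 10.27 in WT and 6.67, 6.01 and 6.56 in KO, a log2 fold change of -3.14 (SE 0.31, adjusted p = 0.00558, limma). The exons before the cassette are kept in KO, so a value of 0 was not required. Lung epithelial markers (6 genes) summed to 18.73 to 19.01 in lung and to 6.29 to 10.65 in heart on the log2 scale. Heart muscle markers (5 genes) summed to 20.69 to 20.99 in heart and to 13.21 to 14.53 in lung, so lung libraries also held muscle transcripts. In whole tissue, fewer cells of a type and less RNA per cell cannot be told apart.

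Erbb4 was the receptor that separated the tissues most, and it was the one member that was higher in heart. Its values (chr1:68071345-69147619, minus strand) were 5.51, 5.69 and 5.76 in WT lungs and 10.78, 11.34 and 10.57 in WT hearts. In KO mice they were 6.13, 6.0 and 5.56 in lungs and 10.95, 10.46 and 10.92 in hearts. Every heart was above every lung. The log2 fold change, lung versus heart, was -5.24 in WT (SE 0.23, adjusted p = 9.89e-10, limma) and -4.88 in KO (SE 0.23, adjusted p = 1.90e-09, limma). The lung level rested on 32.3 to 95.5 estimated counts for the 2 full-length forms, and muscle markers in lung (above) were about 7 log2 units below heart. Their part in lung Erbb4 was not tested.

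The other 3 receptors were higher in lung in both genotypes. Erbb3 (chr10:128403392-128425811, minus strand) read 11.13, 11.17 and 10.90 in WT lungs and 9.56, 9.60 and 9.44 in WT hearts. Its log2 fold change was 1.53 (SE 0.13, adjusted p = 3.09e-07, limma). In KO, Erbb3 read 11.19, 11.30 and 10.94 in lungs and 9.62, 9.61 and 9.59 in hearts. The KO hearts spanned the narrowest range of any receptor in any group, an SD of 0.0149. Egfr (chr11:16702198-16868158, plus strand) read 9.93, 10.06 and 10.09 in WT lungs against 8.71, 8.31 and 8.81 in WT hearts, a log2 fold change of 1.42 (SE 0.17, adjusted p = 9.59e-06, limma). KO lungs read 10.02, 10.40 and 9.86 and KO hearts 8.69, 8.49 and 8.43. Lung and heart values of Egfr did not overlap in either genotype. Erbb2 (chr11:98303203-98328542, plus strand) read 9.93, 10.01 and 9.59 in WT lungs against 8.79, 8.88 and 9.26 in WT hearts, the smallest tissue difference of a receptor (log2 fold change 0.87, SE 0.18; adjusted p = 0.000777, limma). In KO it read 10.01, 10.01 and 9.60 in lungs and 8.89, 8.74 and 8.62 in hearts. In KO the log2 fold changes were 1.54 for Erbb3, 1.56 for Egfr and 1.13 for Erbb2.

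**Figure D1:**
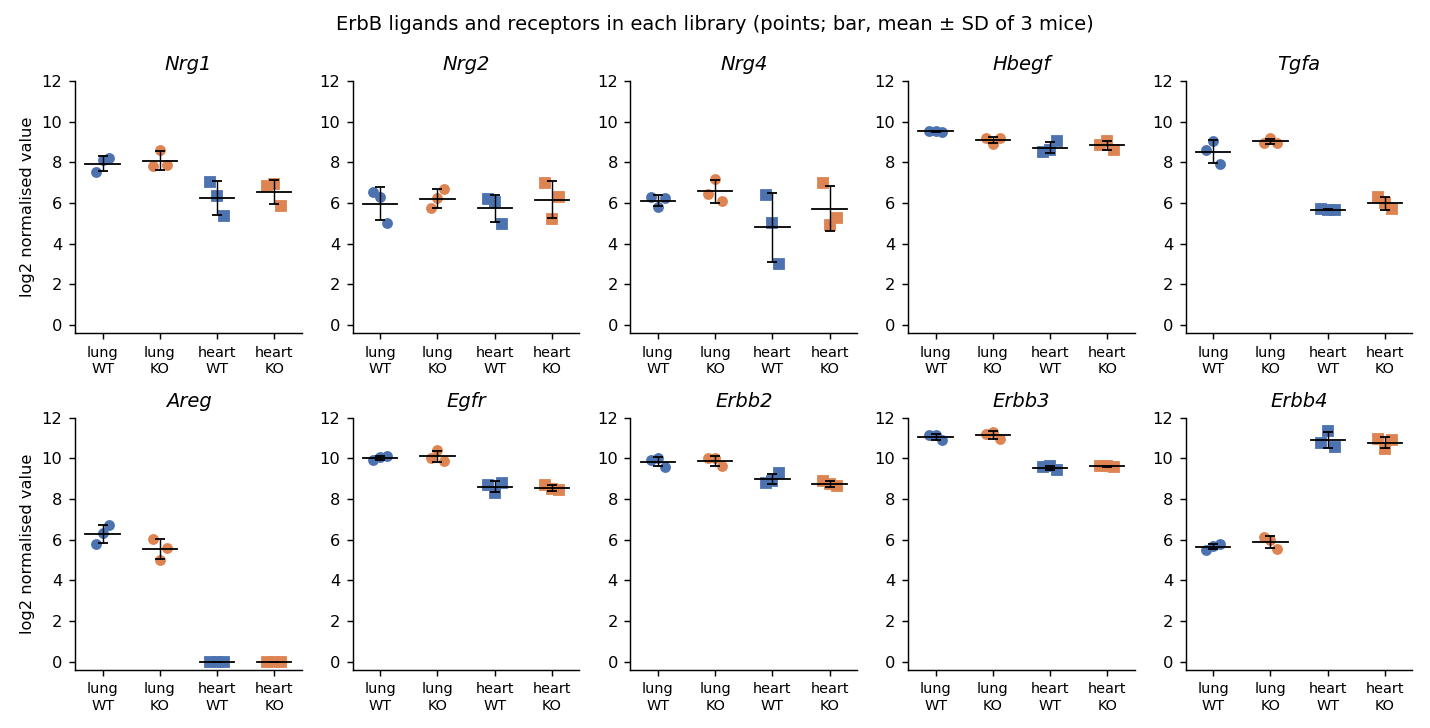
The log2 normalised value (y axis) of each ligand and receptor in each library, by tissue and genotype (x axis), where points are mice and bars are the mean ± SD of 3. Erbb4 sits near 11 in hearts and near 6 in lungs, Areg is at 0 in all 6 hearts, and WT and KO points overlap within a tissue for every gene except Hbegf in lung.

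Among EGFR ligands, Tgfa and Areg were the most lung-biased. Tgfa (chr6:86172041-86252728, plus strand) read 8.58, 9.06 and 7.92 in WT lungs and 5.68, 5.66 and 5.65 in WT hearts, a log2 fold change of 2.86 (SE 0.26, adjusted p = 8.67e-07, limma). KO lungs read 8.94, 9.18 and 8.96 and KO hearts 6.31, 5.98 and 5.68, with a log2 fold change of 3.04 (SE 0.26, adjusted p = 5.21e-07, limma). The 3 WT hearts lay within an SD of 0.017, while the WT lungs spread over an SD of 0.57. Areg (chr5:91287451-91296291, plus strand) read 5.80, 6.33 and 6.70 in WT lungs and 6.03, 5.02 and 5.57 in KO lungs, and it was listed at 0 in all 6 hearts. A heart library with no count allows up to 3 counts. This floor per library was scaled by the largest library constant among the hearts. Against it, mean Areg was at least 15.8-fold higher in WT lungs and at least 9.47-fold higher in KO lungs. For the lowest lung of each genotype, the bound was 10.9-fold in WT and 6.35-fold in KO. Adjusted p was 3.15e-08 in WT and 1.06e-07 in KO (limma), but the KO mean of 5.54 stayed under the level of 6 that a call requires.

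Hbegf was the ligand with the highest level in both tissues. It read 9.52, 9.57 and 9.52 in WT lungs and 8.499, 8.63 and 9.03 in WT hearts, a log2 fold change of 0.81 (SE 0.17, adjusted p = 0.000847, limma). In KO it read 9.20, 8.91 and 9.19 in lungs and 8.87, 9.04 and 8.61 in hearts. The KO tissues overlapped, and the log2 fold change of 0.26 (95% confidence interval -0.10 to 0.62) did not pass the test (adjusted p = 0.186, limma).

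The neuregulins differed among themselves. Nrg1 (chr8:32303906-33374825, minus strand) read 7.501, 8.12 and 8.20 in WT lungs and 7.03, 6.36 and 5.38 in WT hearts. The log2 fold change was 1.68 (SE 0.41, adjusted p = 0.00306, limma). KO lungs read 7.80, 8.61 and 7.85 and KO hearts 6.85, 6.92 and 5.86, a log2 fold change of 1.54 (SE 0.41, adjusted p = 0.00531, limma). Every lung was above every heart. Nrg2, a second ligand of ERBB3 and ERBB4, read 6.56, 6.30 and 5.03 in WT lungs and 6.19, 6.02 and 4.98 in WT hearts. In KO it read 5.73, 6.22 and 6.67 in lungs and 6.99, 5.19 and 6.29 in hearts. Lung and heart overlapped in both genotypes, with log2 fold changes of 0.23 (-0.89 to 1.36) in WT and 0.05 (-1.08 to 1.18) in KO. Nrg2 passed in WT when its listed transcripts were summed (1.07; adjusted p = 0.00729, limma), and the difference turned slightly negative in both genotypes when libraries were set to equal medians (-0.02 and -0.13). Nrg4 (chr9:55121336-55234128, minus strand), a ligand of ERBB4, read 6.28, 5.80 and 6.23 in WT lungs and 6.39, 5.04 and 2.99 in WT hearts. In KO it read 6.45, 7.20 and 6.09 in lungs and 6.96, 4.92 and 5.27 in hearts. The heart values spread over 4 log2 units, and the log2 fold changes of 1.3 in WT (-0.28 to 2.88) and 0.86 in KO (-0.71 to 2.44) did not pass. Without heart WT 1, the WT value was 2.09 and was called.

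In all, 8 of 10 members were called between lung and heart in WT, beside 49.4% of the 17666 genes tested. Of the 10, 7 were called higher in lung, beside 29.3% of the genes tested. In KO, 6 of 10 were called, beside 49.6% of genes, and 5 of the 10 were called higher in lung, beside 28.7%. A call required an adjusted p under 0.05, a fold of at least 1.5 and a mean of at least 6 in the higher group. About 1 in 2 genes passed, so the members' counts are read against a high background. The median log2 fold change of all genes tested was 0.32 in WT and 0.285 in KO, above 0. Of the genes called, 59.4% were higher in lung in WT and 57.9% in KO, and with equal medians 48.8% and 50.6%. With equal medians Hbegf kept a log2 fold change of 0.56 in WT and lost its call, and no other member's call was lost or turned.

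**Figure D2:**
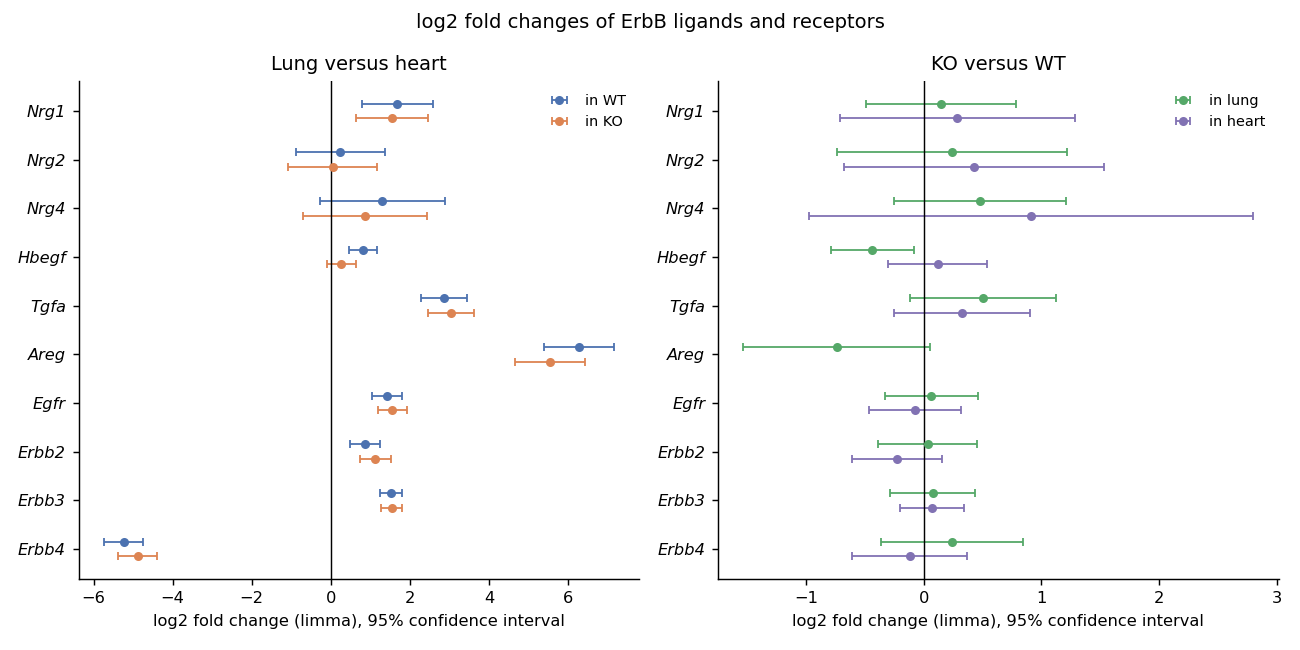
Fitted log2 fold change (x axis) of each gene (y axis) with its 95% confidence interval from limma, lung versus heart at left and KO versus WT at right. The lung versus heart intervals of Erbb4 lie far below 0 in both genotypes and those of Nrg1, Tgfa, Areg and the other 3 receptors above 0. At right only the interval of Hbegf in lung (-0.79 to -0.09) leaves out 0, and Areg in heart is not drawn because it was at 0.

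Levels of different genes were compared as scaled estimated counts per kilobase of transcript. In WT lungs the receptors ran in the order Erbb3 (356.1 ± 34.8, SD, n = 3), Erbb2 (184.8 ± 27.5), Egfr (146.9 ± 9.86) and Erbb4 (5.18 ± 0.61). Erbb2 and Egfr overlapped, and the other neighbours did not. Erbb3 made up 51.3% of the 4 receptors in WT lungs and 51.8% in KO lungs, and Erbb4 0.752% and 0.921%. In WT hearts the order was Erbb4 (226.4 ± 61.5), Erbb3 (122.9 ± 7.20), Erbb2 (103.1 ± 17.9) and Egfr (55.5 ± 11.3), with Erbb3 and Erbb2 overlapping. In KO hearts the order was the same and no neighbours overlapped. Erbb4 made up 44.1% of the receptors in WT hearts and 42.8% in KO hearts. The JM-b form of Erbb4 is annotated only up to 19 exons and 2196 bases, so each of its counts weighs more here. It took 36.8% to 48.0% of the 3 main Erbb4 transcripts per length in hearts. In heart KO 2, Erbb4 read 158.5 per kilobase, with 39.8% of its main transcripts on JM-b, and Erbb3 read 129.0. Left without that form, Erbb4 falls below Erbb3 in this heart. In heart WT 2 (296.4, 36.8% and 128.6) it stays above. The place of Erbb4 above Erbb3 in every heart, and its share, thus depend on a short annotation.

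Hbegf led the ligands in each of the 4 groups and was above the next ligand in every library of its group. It reached 310.9 ± 5.74 per kilobase in WT lungs (SD, n = 3), 230.6 ± 25.6 in KO lungs, 178.6 ± 35.6 in WT hearts and 193.1 ± 28.6 in KO hearts. In WT lungs the other 5 ligands ran from Tgfa (83.9 ± 31.8) through Areg, Nrg1 and Nrg4 to Nrg2 (37.3 ± 17.3), and every neighbouring pair among them overlapped. In KO lungs Tgfa (112.9 ± 11.6) stood above the rest without overlap. In WT hearts Nrg2 (31.6 ± 12.1), Nrg4 (24.9 ± 23.6), Nrg1 (19.1 ± 9.95) and Tgfa (10.7 ± 0.22) followed Hbegf, each overlapping the next.

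**Figure D3:**
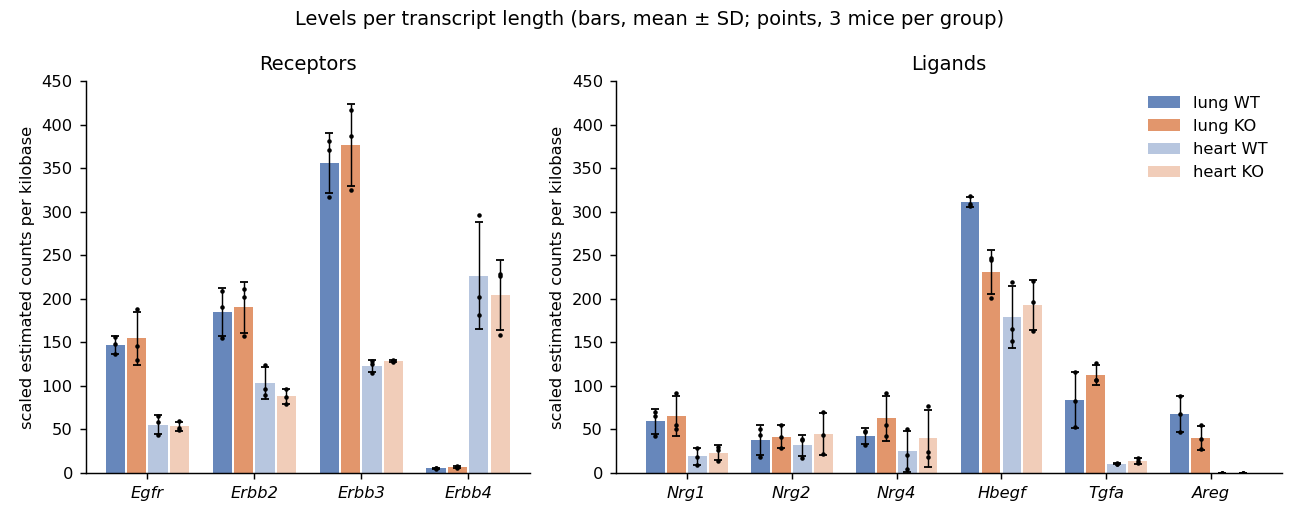
Scaled estimated counts per kilobase (y axis) of the receptors at left and the ligands at right, with bars for the mean, error bars for the SD and points for the 3 mice of each group. Erbb3 is the tallest receptor in lung, where Erbb4 stays near 6. With its JM-b form counted, Erbb4 is the tallest in heart, and Hbegf is the tallest ligand in every group.

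None of the 10 members was called between KO and WT lungs, beside 0.0665% of the 16551 genes tested, and limma-voom also called 0. Hbegf was the 1 member of 10 with an unadjusted p under 0.05, beside 5.93% of all genes. Its 3 KO lungs (9.20, 8.91 and 9.19) lay below its 3 WT lungs (9.52 to 9.57), with a gap of 0.31. A gap in this direction was found in 6.4% of all genes. The log2 fold change was -0.44 (SE 0.15; 95% confidence interval -0.79 to -0.09; adjusted p = 0.806, limma). Of the 5 leukocyte markers, Lyz2, a macrophage and neutrophil gene, read 16.77, 16.75 and 16.82 in WT lungs and 16.53, 16.60 and 16.37 in KO lungs (log2 fold change -0.28). It dominates their sum, which was 16.81 to 16.91 in WT lungs and 16.49 to 16.67 in KO lungs. The other 4 had positive values (Ptprc 0.05, Cd79a 0.40, Cd3e 0.20, S100a8 0.02), and none of the 5 was called. The part of leukocytes in the Hbegf value was not tested. Areg had a larger but more variable difference, -0.74 (-1.53 to 0.05). Tgfa and Nrg4 had values of 0.50 (-0.12 to 1.12) and 0.48 (-0.25 to 1.21). For the receptors the differences were 0.07 for Egfr, 0.03 for Erbb2, 0.08 for Erbb3 and 0.24 for Erbb4. The intervals of Egfr, Erbb2 and Erbb3 stayed within 0.46 log2 units of 0 on either side.

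In hearts, none of the 9 members tested was called between KO and WT, beside 0.085% of 15303 genes, and none had an unadjusted p under 0.05, where 7.46% of all genes did. limma-voom also called 0. Areg could not be tested. Nrg4 had the largest difference and the widest interval, 0.91 (-0.97 to 2.80). The receptors differed by -0.07 (Egfr), -0.23 (Erbb2), 0.07 (Erbb3) and -0.12 (Erbb4), and the interval of Erbb3 was the narrowest (-0.20 to 0.34). Hbegf, which was lower in KO lungs, read 0.12 in hearts (-0.30 to 0.54). The difference of the genotype effect between the tissues was -0.55 for Hbegf (SE 0.24; unadjusted p = 0.0369 and adjusted p = 0.624, limma). No member was called for that difference, beside 0.00566% of 17666 genes.

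Nrg4 is known as a factor secreted by brown fat, and its level was set beside 5 adipocyte markers (Adipoq, Plin1, Cfd, Lep and the brown fat gene Ucp1). The summed markers ran from 9.27 to 11.46 in WT lungs, 9.75 to 12.15 in KO lungs, 8.47 to 12.62 in WT hearts and 9.52 to 12.73 in KO hearts on the log2 scale. None was at 0 in a whole group. Ucp1 in hearts read 11.61, 9.21 and 4.58 in WT and 11.75, 7.65 and 10.05 in KO, while Nrg4 read 6.39, 5.04 and 2.99 and 6.96, 4.92 and 5.27. The same hearts were high in both. Over the 6 hearts, Nrg4 against the mean of the 5 markers gave Pearson's r = 0.94 (exact permutation p = 0.00139, adjusted over 19 relations 0.0264) and Spearman's rho = 1 (exact permutation p = 0.00278, adjusted 0.0528). Without the 2 hearts farthest from the median, r was 0.99. Over the 6 lungs r was 0.85 (exact permutation p = 0.0264, adjusted 0.167) and rho 0.77 (exact permutation p = 0.103, adjusted 0.651), and r was 0.45 without the 2 farthest lungs. Nrg2 had a similar relation in hearts, with r = 0.95 (exact permutation p = 0.00417, adjusted 0.0396) and rho = 0.94 (exact permutation p = 0.0167, adjusted 0.158), but in lungs its r was -0.36. For Nrg2, r in hearts was 0.73 without the 2 farthest. With so few libraries left, values of r without the 2 farthest were unstable. In hearts r went from -0.10 to 0.98 for Egfr and from 0.54 to -0.74 for Erbb4. The 19 relations were each member against the markers in each tissue, without Areg in heart, and they pooled both genotypes. The pattern was noticed in Nrg4 first. Within a genotype the 3 hearts are too few for a correlation. Heart WT 3, lowest in the markers, in Nrg4 and in Nrg2, was also the shallowest heart. The part of fat tissue or depth in the Nrg4 and Nrg2 values was not tested.

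**Figure D4:**
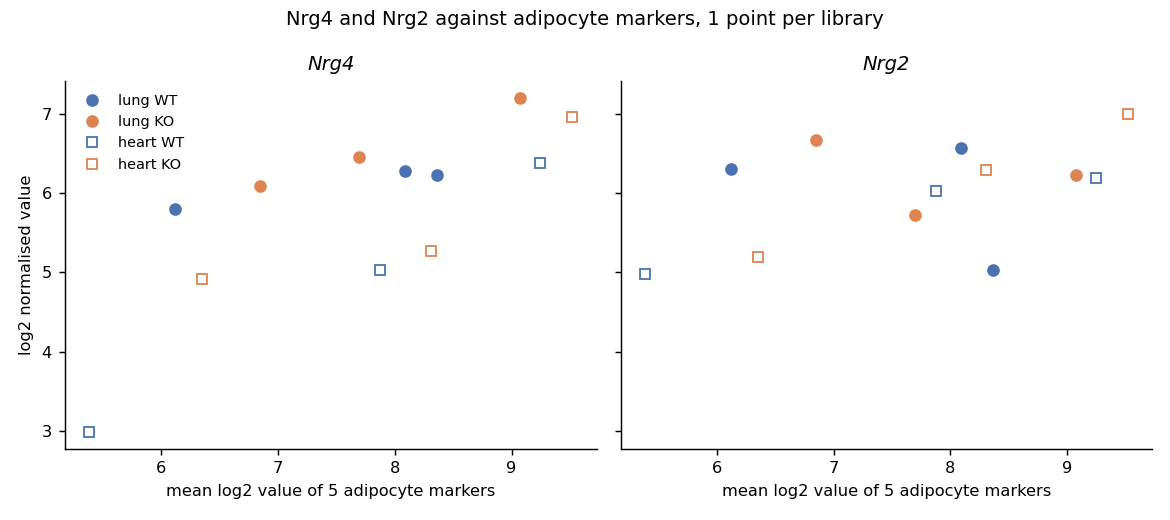
The log2 normalised value (y axis) of Nrg4 at left and Nrg2 at right against the mean log2 value of 5 adipocyte markers (x axis), 1 point per library. The 6 hearts (open squares) rise together for both genes, while the 6 lungs (filled circles) rise for Nrg4 and scatter for Nrg2.

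Of the 75 transcripts listed for the 10 genes, 24 were at 0 in all 12 libraries and 21 had at least 10 estimated counts in 3 or more. Erbb3 and Areg had 1 listed transcript each, and Nrg1 had 34, of which 17 were at 0 throughout. No member transcript was called between genotypes in lung (beside 0.1% of 36857 transcripts tested) or in heart (beside 0.0625% of 32015). Between lung and heart, 13 of the member transcripts tested were called in WT (beside 39% of 43800 tested) and 10 in KO (beside 40.4%). The member transcripts tested were close in number to the 21 above, and far fewer than the 75 listed. The 3 main Erbb4 transcripts were called lower in lung in both genotypes, with log2 fold changes from -6.65 to -4.09.

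Erbb4 counts fell mainly on 3 transcripts. ENSMUST00000119142.8 has 28 exons with JM-a and CYT-1, ENSMUST00000121473.8 has 27 exons with JM-a and without the CYT-1 exon, and ENSMUST00000153432.2 is annotated up to 19 exons and has JM-b. They are called the CYT-1, CYT-2 and JM-b forms below. By estimated counts, not corrected for length, the JM-b form, the one ADAM17 does not cut, was a minor share in both tissues. In hearts it took 10.1%, 9.65% and 14.4% of the 3 forms' counts in WT and 9.78%, 10.7% and 12.8% in KO. In lungs it took 0.0%, 3.98% and 2.34% in WT and 8.73%, 6.02% and 9.81% in KO. The share was lower in lung than in heart in 6 of 6 mice, by 6.07 percentage points on average (SD 4.21, n = 6). The exact paired permutation test gave p = 0.0312, the smallest that 6 mice allow, and 0.188 after adjustment over the 6 shares compared. The JM-b form is annotated at 2196 bases and the CYT-1 form at 11782, so the JM-b share per length was larger, 40.9% in heart and 21.4% in lung, and not minor. Reads from exons past the annotated end of the JM-b form can be assigned only to the other forms. In lung all 3 KO shares were above all 3 WT shares, on 3.5 to 7.1 counts in KO and at most 1.9 in WT (exact permutation p = 0.10, the smallest that 3 against 3 allows).

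The CYT-1 form took 53.3%, 71.1% and 53.6% of the CYT-1 and CYT-2 counts in WT hearts and 36.7%, 42.0% and 39.5% in KO hearts. The WT and KO hearts did not overlap, a difference of -20.0 percentage points (exact permutation p = 0.10, the smallest possible). Of the 12 genotype comparisons of shares, 6 forms in 2 tissues, this and the JM-b share in lung were the 2 without overlap. Neither transcript was called by limma in heart, where the CYT-1 form had a log2 fold change of -0.70 (-1.58 to 0.17) and the CYT-2 form of 0.49 (-0.05 to 1.03). Beside the CYT-1 exon, the 2 transcripts differ in length (11782 and 12438 bases), and a read in a shared exon is divided between them by estimation. In lungs the CYT-1 share ran from none to all of the counts, on 32.3 to 95.5 counts per library, so no tissue difference could be read from it.

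Nrg1 counts were mostly on ENSMUST00000207470.3, a type I transcript, whose product starts with an immunoglobulin-like region and is shed. It carries the beta exon. The 13 transcripts with the type I start held 150.2 to 319.9 counts per lung and 18.8 to 113.6 per heart. The 7 with the type III start, whose product stays anchored by a second membrane segment, held 0.0 to 24.7 per lung and 0.0 to 5.3 per heart. The 4 with the type II start were at 0 in all 12 libraries. The alpha exon printed above took 10.8% ± 1.52 (SD, n = 6) of alpha and beta counts in lung and 10.95% ± 6.24 in heart, so the beta exon held the rest of the counts in both. The difference between tissues was -0.14 percentage points (SD 5.68, exact permutation p = 0.875, adjusted 0.969). The main beta transcript is annotated at 6519 bases and ENSMUST00000208598.2, with the alpha exon, at 1778. Per length the alpha share was larger, 32.6% in lung and 24.4% in heart. The tissue difference per length was 8.15 points with the opposite sign, and it did not pass there either (exact permutation, adjusted 0.30). Within the alpha class, ENSMUST00000208598.2 held 15.9, 5.7 and 36.2 counts in WT lungs and 0.0 in all 3 KO lungs, and ENSMUST00000207678.3 held 0.0 in all 3 WT lungs and 15.9, 12.6 and 15.8 in KO lungs. The 2 transcripts share the alpha exon, and their summed share did not separate the genotypes (10.7% ± 0.72 in WT and 10.9% ± 2.30 in KO lungs, n = 3 each).

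Egfr has a short form, ENSMUST00000102884.10 (16 exons, 655 codons against 1210 in the full-length ENSMUST00000020329.13), which ends within the part outside the cell. It reads past the end of an exon into the intron, where 40 coding bases are its own (chr11:16837186-16837225, plus strand, in capitals after 15 shared coding bases in lower case).
Egfr short form end: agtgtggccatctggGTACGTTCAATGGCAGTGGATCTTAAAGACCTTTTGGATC

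This form took 14.5% ± 3.03 (SD, n = 6) of Egfr counts in lung and 18.3% ± 6.36 in heart, lower in lung in 5 of 6 mice (exact permutation p = 0.156, adjusted 0.312). Heart WT 2 stood apart with 6.02%, on 13.3 counts, where the other hearts ran from 17.2% to 22.5%. The short form is annotated at 2948 bases and the full-length form at 10221. Per length the share of the short form was larger, 36.8% in lung and 42.6% in heart, and the tissue difference did not pass there either (exact permutation, adjusted 0.30). The Erbb2 transcript ENSMUST00000136032.2 keeps the 81-base intron after exon 17 (chr11:98323876-98323956, plus strand) and has no annotated coding sequence. It took 9.15% to 24.8% of Erbb2 counts in 5 lungs and 12.8% to 32.6% in 5 hearts, and was at 0 in both tissues of mouse WT 3, where the full-length transcript held 966.2 and 363.1 counts. The share was not higher in lung in any of the 6 mice (exact permutation p = 0.0625, adjusted 0.188). Both forms hold intron sequence and the libraries were made from total RNA, so reads from unspliced RNA would be assigned to them. Their part was not tested.

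**Figure D5:**
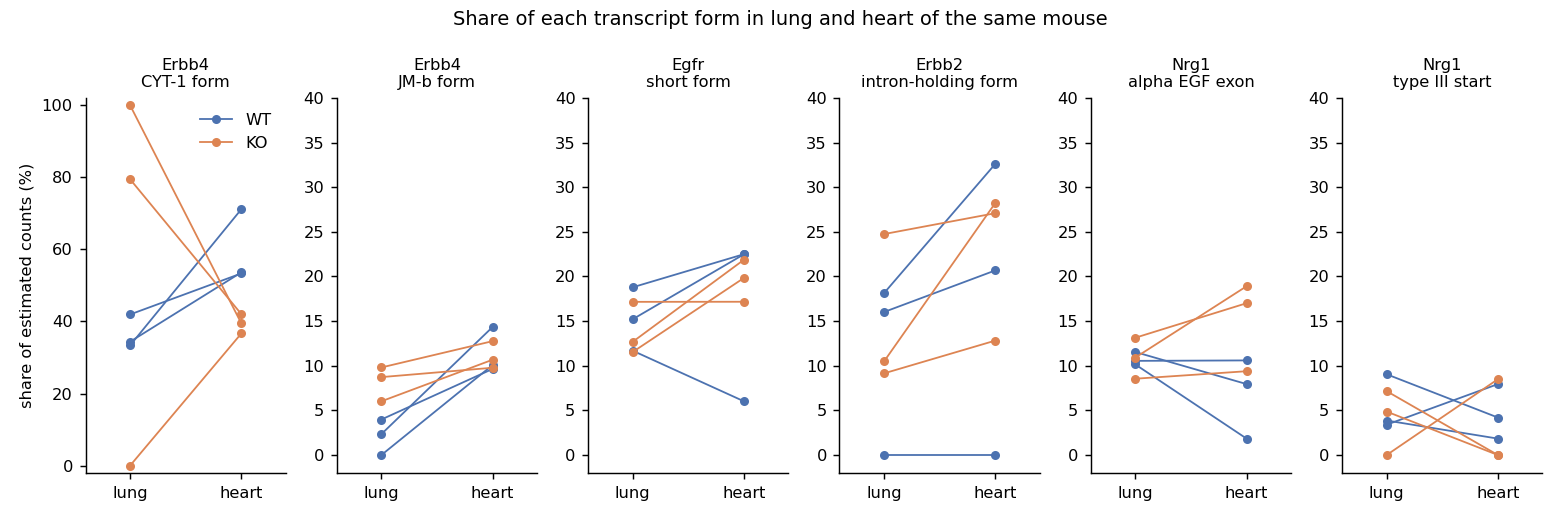
Share of estimated counts (y axis, percent) of 6 transcript forms in lung and heart (x axis), with a line joining the tissues of each mouse. The CYT-1 panel runs to 100% and the others to 40%. The JM-b line rises from lung to heart in all 6 mice, the CYT-1 points of WT hearts lie above those of KO hearts, and 1 WT mouse sits at 0 in both tissues for the Erbb2 form.

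The rest of the pathway was followed in 5 lists. Of their 73 genes, 68 were tested in each genotype comparison, and none was called in lung or in heart (limma). In each tissue 4 of the 68 had an unadjusted p under 0.05, beside 5.93% of all genes in lung and 7.46% in heart. The lowest adjusted p was 0.806 in lung and 0.484 in heart. Between tissues, the other ErbB ligands split. Egf was higher in heart (8.35 to 9.17 against 3.72 to 5.44 in lung; log2 fold change -3.67 in WT and -3.81 in KO), and Btc, which encodes betacellulin, was higher in lung (7.13 to 8.13 against 4.85 to 5.81; 1.93 and 2.30). Ereg, Epgn and Nrg3 did not pass the low-value filter, and none exceeded 4.58 in any library.

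The counts that follow are read beside all genes, of which 49.4% were called in WT (29.3% higher in lung) and 49.6% in KO (28.7% higher). Of the 12 sheddases and partners, 5 were called higher and 1 lower in lung in WT, and 6 and 1 in KO. Adam8, a metalloprotease of leukocytes, read 7.45 to 8.40 in lung and 2.79 to 4.70 in heart (4.50 in WT and 3.94 in KO). Rhbdf2, a partner that ADAM17 needs to mature, had 0.80 and 1.38, and Bace1, which was lower in lung, -1.35 and -0.94. Of 28 adaptors and relays, 10 were higher and 10 lower in WT, and 8 and 11 in KO. Src, a kinase that ErbB receptors act through, was higher in lung (3.20 and 2.70), and Stat5a, a transcription factor, was lower (-1.29 and -1.81). Of 14 feedback and turnover genes, 7 were higher and 1 lower in WT, and 9 and 1 in KO, among them Lrig3 (2.84 and 2.06) and Errfi1, an inhibitor of the EGFR kinase (2.75 and 2.56). Of 12 response genes tested, 7 were higher in WT and 6 in KO, and none was lower, among them the transcription factors Egr2 (3.78 and 1.79) and Etv5 (3.29 and 2.90) and the cyclin gene Ccnd1 (1.76 and 1.90). Leukocyte markers were higher in lung too, all 5 called in both genotypes (median difference 4.49 log2 units in WT and 4.72 in KO), and the part of that difference in these lists was not tested. The median log2 fold change in WT was 0.65 for sheddases, -0.25 for adaptors, 0.57 for feedback genes and 1.39 for response genes, beside 0.32 for all genes.

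Over the 12 libraries, after removal of the 4 group means, the genes whose deviations were most like those of Nrg1 among 17656 compared were Fibin (r = 0.94), Slc26a3 (0.92) and Masp2 (0.91). Those most like Erbb3 were Rhebl1 (0.96), Tsku (0.94) and Sirt6 (0.94). The points share library, mouse and depth, and the values are a description of these 12 libraries.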

How the data were processed

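RNA from whole frozen lung and heart (RNeasy kit) was made into stranded total RNA libraries (TruSeq). Per the study's methods, the authors quantified transcripts with Salmon against GENCODE vM33 (mm39); the labels also name cutadapt, STAR and limma 3.42.2. The deposited transcript table holds log2(1 + estimated count), and the deposited gene table holds log2 values scaled between libraries by the authors. How transcripts were combined into genes is not given in the sources used here; single-transcript genes differ from their transcript by 1 constant per library (-0.63 to 0.80), which was added to transcript values. Gene and summed transcript values differed by up to 1.03 for Nrg2, by up to 0.86 for Nrg1 and by up to 3.06 for Adam19, the gene used to check the labels.

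limma 3.58.1 (R 4.3.3) with an abundance trend was fitted to genes or transcripts reaching log2 of 11 (10 counts; 3.46) in at least 3 libraries, on 6 libraries for genotype and on all 12 for tissue, with Benjamini-Hochberg adjustment. Calls needed adjusted p under 0.05, fold of at least 1.5 and, for genes, a group mean of at least 6. The fits were tested on simulated data with independent noise and set changes larger than any genotype difference of a member. Recovery of differences as small as those of the members was not tested. Isoform shares were compared by exact two-sided paired permutation over mice, and genotype shares by exact permutation of 3 against 3, added after the data were seen. Exons came from GENCODE vM39, which matched 99.5% of transcripts. No protein sequences were used here.

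Members and lists were chosen with earlier results of these data known. Named list genes are the 2 with the largest absolute log2 fold change, in whichever genotype it was larger, among those called in both genotypes (Bace1 and Ccnd1 were added after their values were seen), any called between genotypes, and the 3 most like Nrg1 and Erbb3 by correlation. Lung and heart are paired by mouse identifier; their deviations correlated between -0.07 and 0.14. The precision is limited by 3 mice per group. Alternatives were no filter, a strict filter, equal medians, quantile normalization, summed transcripts, limma-voom, no trend, a joint fit, the mouse as a block and leaving out each replicate. For the shares, a share per length and leaving out each mouse were added after the data were seen.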

Additional observations from a re-analysis of the deposited data

How the results depend on the processing

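Among members, 528 of 554 values kept direction and side of the threshold. In WT lung versus heart Hbegf lost its call with equal medians (0.56) and Areg with quantile normalization (5.19, mean under 6), and Nrg2 gained one with summed transcripts (1.07) and Nrg4 without heart WT 1 (2.09). Nrg2 changed sign, lung versus heart, with equal medians (-0.017 in WT, -0.13 in KO) and quantile normalization (-0.60 and -0.64), and between KO and WT lungs with summed transcripts (-0.42). The cause was not tested. Areg was left out of the tissue comparison where every library had to pass the floor. Leaving out 1 replicate turned the sign of values that had not passed, with these ranges. KO versus WT in lung: Nrg1 -0.11 to 0.29, Nrg2 -0.22 to 0.54, Egfr -0.086 to 0.18, Erbb2 -0.095 to 0.17, Erbb3 -0.0063 to 0.18. KO versus WT in heart: Nrg1 -0.15 to 0.67, Egfr -0.22 to 0.028, Erbb4 -0.28 to 0.10. Lung versus heart: Nrg2 -0.14 to 0.70 in WT and -0.43 to 0.47 in KO. Shares without 1 mouse, in percentage points: CYT-1 -13.5 to 6.13, Nrg1 alpha -1.83 to 1.43, Nrg1 type III -0.26 to 2.87. The tissue difference of the alpha share per length was 8.15. All genes called numbered 11 in lung and 13 in heart for KO versus WT, 1 and 7 with a value over the floor required in every library, and 10 to 21 in heart without 1 replicate (21 without KO 2). For the difference between tissues 1 gene was called, 2 with the mouse as a block and 0 to 6 without 1 replicate. The replicate block, fitted in the tissue comparisons, kept 8 members called in WT and 6 in KO and changed no member's call. Hbegf in KO versus WT lungs ranged from -0.49 to -0.34 without 1 replicate, with adjusted p from 0.556 to 0.994 over all alternatives (limma). Depth limits lung Erbb4 forms and heart Nrg1 forms most, and 3 mice per genotype leave Nrg2 and Nrg4 with intervals wider than 2 log2 units in heart.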
